A study of Rattus norvegicus with 4 samples.

Results

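Fibroblast markers and genes of the extracellular matrix were followed in cultured rat heart cells that had been given a fish-oil fatty acid. A list of 41 genes was taken by gene symbol: collagens, matrix glycoproteins and proteoglycans, elastic fibre and crosslinking genes, matrix proteases and their inhibitors, TGF-beta ligands, and markers of fibroblasts. Of these, 34 had a probe named on the array and a value on all 4 arrays, out of 9653 named genes measured. They were read by 46 probes, and 8 of them had more than 1 probe, which were averaged. Col1a1, Col4a1, Col4a2, Col6a1, Col6a2, Postn and Timp1 had no probe in the annotation and were not analysed here.

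The cells were primary ventricular cultures from newborn Wistar rats, all kept in HAM F10 with fetal calf serum and horse serum at 10% each. Supplemented cultures also received eicosapentaenoic acid (EPA) or docosahexaenoic acid (DHA) at 60 µM, and controls received neither. EPA and DHA are long-chain omega-3 fatty acids, and DHA is the longer and more unsaturated of the pair. Medium was renewed every 48 h and all cultures were harvested at confluence. Labelled cRNA from a supplemented and a control culture was hybridised together on each array, and each fatty acid was run on 2 arrays with exchanged dyes. On EPA array 1 and DHA array 1 the supplemented cells were labelled with Cy5, and on EPA array 2 and DHA array 2 with Cy3. It is not given whether both arrays of a swap used the same extracts of RNA, so each fatty acid counts as 1 RNA sample against 1 control RNA and has no replicate check. Nor is it given whether EPA and DHA were set against the same control RNA. Such cultures hold fibroblasts and other heart cells beside cardiomyocytes, and in bulk RNA fewer cells of a type and less RNA per cell cannot be told apart. A ratio carries no level, so markers show shifts between cultures and cannot show which cells were present.

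Cardiac fibroblasts are the main source of the collagenous matrix that holds heart muscle cells together. They secrete procollagen chains, which are processed, assembled into fibrils and crosslinked by lysyl oxidases, and they release the metalloproteases and tissue inhibitors that turn the matrix over. TGF-beta signalling raises collagen production in these cells and turns them into contractile myofibroblasts, and fibroblasts multiply readily in culture with serum while cardiomyocytes largely do not.

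The upstream sequences of 2 listed genes are printed for context, the matrix glycoprotein gene Sparc and the intermediate filament gene Vim. Each is the 250 bases before the gene's start in RefSeq on assembly GRCr8, written 5′ to 3′ on the gene's strand. Sparc lies on the minus strand with its window at chr10:40038817-40039066, and Vim on the plus strand with its window at chr17:81577011-81577260. Capitals mark TATAAA and CCAAT (read as ATTGG on the other strand), both searched on both strands.
Sparc: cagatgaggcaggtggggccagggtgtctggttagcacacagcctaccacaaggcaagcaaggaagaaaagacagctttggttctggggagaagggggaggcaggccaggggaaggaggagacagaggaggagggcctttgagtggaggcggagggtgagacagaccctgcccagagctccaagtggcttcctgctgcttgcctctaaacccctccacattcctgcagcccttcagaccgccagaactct
Vim: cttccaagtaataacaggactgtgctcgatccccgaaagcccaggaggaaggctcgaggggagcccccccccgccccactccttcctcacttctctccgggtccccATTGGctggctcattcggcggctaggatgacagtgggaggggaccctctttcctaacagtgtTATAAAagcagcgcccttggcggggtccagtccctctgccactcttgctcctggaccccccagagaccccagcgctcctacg

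The Vim window held TATAAA 82 bases and CCAAT 144 bases before the start, and the Sparc window held neither. RefSeq promoters were matched for 21 of the 34 measured genes. TATAAA was in 6 of these 21 (28.6%) and in 12.9% of all 33469 promoters of the same length. CCAAT was in 6 of 21 (28.6%) and in 34.0% of all. These are matches of letters in short windows and no more than that.

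Values below are log2 ratios read as fatty acid over control, with each array's median set to 0. That direction is assumed and not stated by the labels, and the log base is not stated either. Means are given with the half-difference of the swap's arrays, called the swap error here, which holds dye and array differences and, if the extracts were separate, those between extracts. Across all probes the interquartile range ran from 0.19 to 0.26 on the 4 arrays, and the arrays of a swap correlated at r = -0.11 for EPA and -0.03 for DHA. The first 66 grid columns, inferred from the feature numbers, hold 30.6% of the features, and on DHA array 1 they carried a long negative tail: 17.1% of all features there were below -1, against 0.0563% elsewhere. Of the 34 genes, 13 had a probe in those columns, and for Dcn, Eln, Fbn1, Timp2, Tgfb1, Pdgfra and Pdgfrb it was the only probe. Without those columns the arrays of a swap correlated at r = -0.09 for EPA and -0.16 for DHA. Reading the ratios as Cy5 over Cy3 instead would turn the sign of each r.

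No listed gene was at least 1.5-fold higher or lower on both arrays of a swap with either fatty acid. Over all named genes 0.0311% were higher and 0% lower by that rule with EPA, and 0.0414% were higher and 0.0414% lower with DHA. At 1.3-fold, Sparc was the only listed gene past the threshold, higher with EPA, where 0.176% of named genes were higher and 0.0829% lower. With DHA 0 listed genes passed 1.3-fold, against 0.145% higher and 0.238% lower over all named genes. The mean lay within 1.3-fold of control for 29 of the 34 genes with EPA and for 25 with DHA.

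Some listed genes were far from 0 in opposite directions on the arrays of a swap. With EPA 3 listed genes (Col1a2, Fn1 and Bgn) passed 1.5-fold on both arrays in opposite directions, against 0.28% of named genes, and Col5a1 joined them at 1.3-fold, against 0.746%. With DHA 0 listed genes did so at 1.5-fold (background 0.0518%) and the same 3 without Col5a1 did at 1.3-fold (background 0.715%). The arrays of a swap lay on opposite sides of 0 for 16 genes with EPA (47.1%, against a background of 55.1%) and for 21 with DHA (61.8%, against 54.3%), shares near those of all named genes. Had the table run Cy5 over Cy3 instead, Col1a2, Fn1 and Bgn would be the listed genes called at 1.5-fold, at -1.19, -1.32 and -1.24 with EPA.

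**Figure D1:**
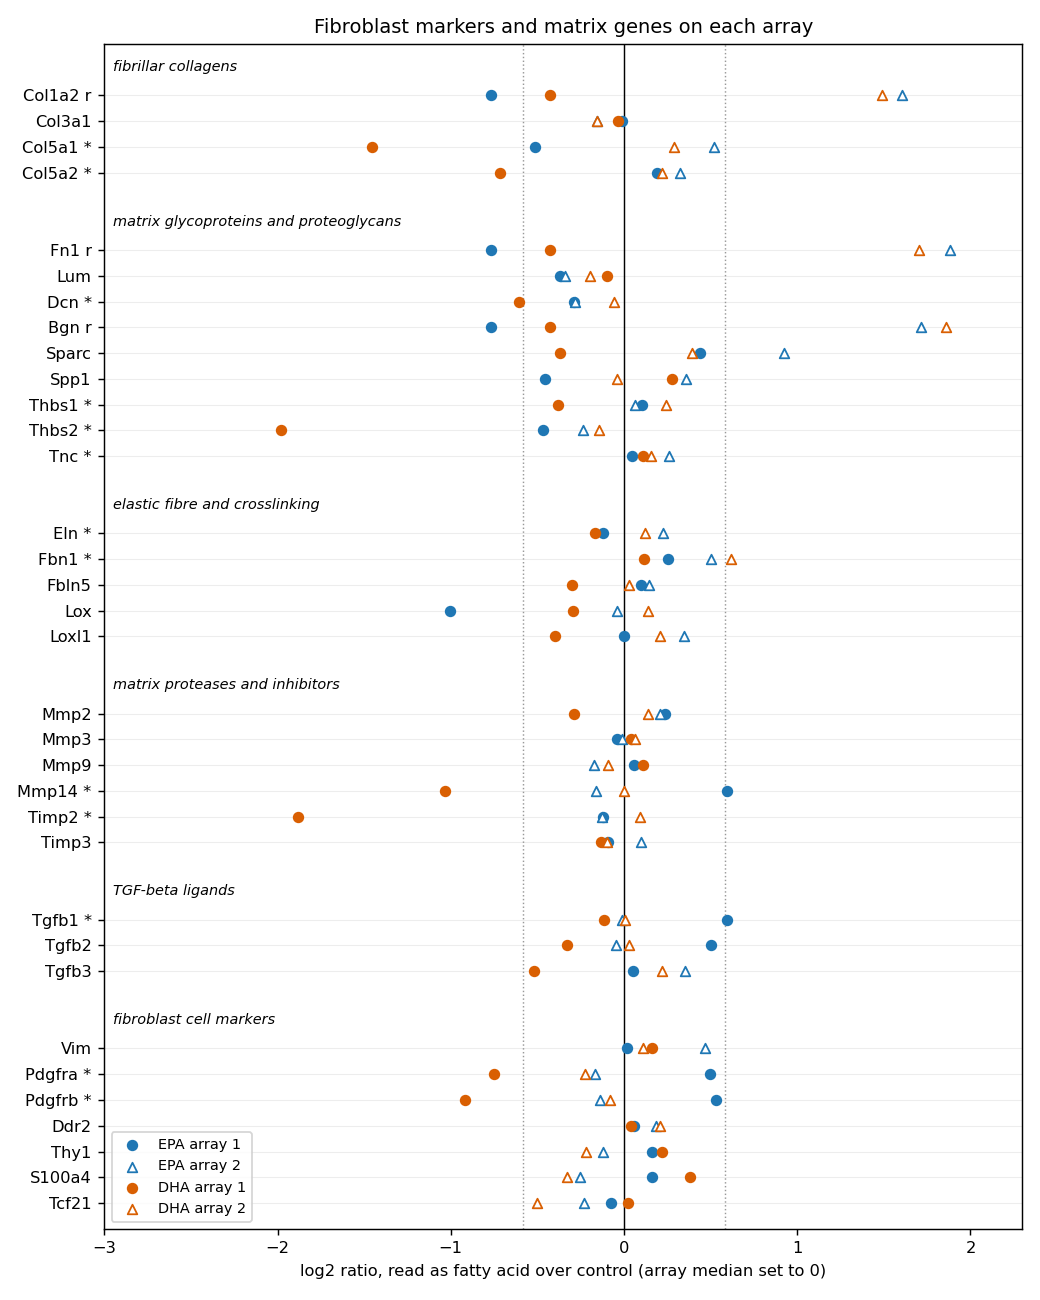
Log2 ratio of each of the 34 measured genes on the 4 arrays (horizontal axis, array median set to 0), grouped by role, with blue for EPA, orange for DHA, filled circles for arrays 1 and open triangles for arrays 2. Dotted lines mark 1.5-fold, an asterisk a gene with a probe in the first 66 columns, and r a probe of a repeated value. Col1a2, Fn1 and Bgn have their circles below 0 and their triangles above 1.4, and most other genes sit between the dotted lines.

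Fibrillar collagens form the tensile fibres of the matrix, and 4 of them were measured. In this and the following accounts the 4 values of a gene are given in 1 order, first both EPA arrays and then both DHA arrays, with array 1 before array 2. Col3a1, the chain of type III collagen made by fibroblasts of soft tissue, was at -0.01, -0.16, -0.04 and -0.15. It was slightly below 0 on every array, with means of -0.08 ± 0.07 for EPA and -0.10 ± 0.06 for DHA, so the difference from control was about as small as the swap error. Its side of 0 was not kept on all 4 arrays when the first columns were left out and the arrays centred anew.

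Col1a2, a chain of type I collagen, was at -0.77, 1.61, -0.43 and 1.49. The values are low on both arrays 1 and high on both arrays 2, so as read here the sign changed with the dye. The means of 0.42 ± 1.19 and 0.53 ± 0.96 were smaller than their errors. Below, following the dye means such a change of sign, which rests on the assumed direction and whose cause was not tested. Read as Cy5 over Cy3, Col1a2 would be below 0 on all 4 arrays. Its values on arrays 1 belong to a set repeated across probes: 30 probes stood at -0.77 on EPA array 1 and 30 at -0.43 on DHA array 1, within 0.0002. The 17 probes at both repeated values included Fn1 and Bgn as well, and had medians of 1.67 on EPA array 2 and 1.67 on DHA array 2. On arrays 1 these 3 genes therefore cannot be told apart from each other.

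Col5a1 and Col5a2 are chains of type V collagen, a minor collagen that sets fibril diameter. Col5a1 was at -0.52, 0.52, -1.45 and 0.29, with opposite sides of 0 in both swaps. Col5a2 was at 0.19, 0.32, -0.72 and 0.22, above 0 on 3 arrays and lowest on DHA array 1. Each has 1 of 2 probes in the first 66 columns, and there DHA array 1 read -2.55 for Col5a1 and -1.28 for Col5a2, against -0.35 and -0.15 for their other probes. From the probe outside those columns alone, DHA means were 0.08 ± 0.43 for Col5a1 and -0.13 ± 0.02 for Col5a2, in place of -0.58 ± 0.87 and -0.25 ± 0.47.

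Among matrix glycoproteins and proteoglycans, Sparc stood out with EPA. Sparc encodes osteonectin, a collagen-binding protein made by fibroblasts and other cells that build matrix, and it was at 0.44, 0.93, -0.37 and 0.39. Both EPA arrays were above 0, with a mean of 0.68 ± 0.24 or 1.60-fold, while the DHA arrays lay on opposite sides of 0 with a mean of 0.01 ± 0.38. Its single probe lies outside the first 66 columns, and after subtraction of the local median the EPA mean was 0.61 ± 0.17. Read as Cy5 over Cy3 the EPA arrays would be at 0.44 and -0.93, on opposite sides.

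The small leucine-rich proteoglycans bind collagen and help order its fibrils. Lum, lumican, was at -0.37, -0.34, -0.10 and -0.20, below 0 on every array and lower with EPA (-0.36 ± 0.01) than with DHA (-0.15 ± 0.05). Dcn, decorin, was at -0.29, -0.28, -0.60 and -0.06, also below 0 on every array. The EPA arrays of Dcn differed by little and its DHA arrays by more (mean -0.33 ± 0.27). Its only probe is in the first 66 columns, where the local median on EPA array 1 was above 0. After subtraction of the local median Dcn was at -0.54, -0.21, -0.52 and 0.06, no longer below 0 on every array. Bgn, biglycan, was at -0.77, 1.71, -0.43 and 1.86 and is one of the genes at the repeated values. Fn1, fibronectin, an adhesive glycoprotein and not a proteoglycan, had the same pattern at -0.77, 1.88, -0.43 and 1.70.

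Matricellular proteins modulate how cells meet the matrix. Thbs2, thrombospondin 2, was at -0.47, -0.24, -1.98 and -0.14, below 0 on every array but far lower on DHA array 1 than on the others. Its probe in the first columns read -3.35 there and its other probe -0.61, and from the latter alone the means were -0.19 ± 0.12 for EPA and -0.32 ± 0.28 for DHA. Thbs1, thrombospondin 1, known as an activator of latent TGF-beta, was at 0.10, 0.07, -0.38 and 0.24. Its 4 probes spanned a range of 1.16 on EPA array 1, while its averages on the 4 arrays stayed between -0.38 and 0.24.

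Tnc, tenascin C, a glycoprotein of developing and injured tissue, was at 0.05, 0.26, 0.11 and 0.16, above 0 on every array. Its 4 probes did not all share this. The probe in the first columns read 0.55, -0.09, 0.63 and -0.11, following the dye, and without it the gene was at -0.12, 0.38, -0.06 and 0.25. Of the outside probes, 1 read -0.49 and -0.25 on arrays 1, while another read 0.08, 0.28, 0.06 and 0.20. Spp1, osteopontin, was at -0.45, 0.36, 0.28 and -0.04, with a different order of the arrays in each swap.

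**Figure D2:**
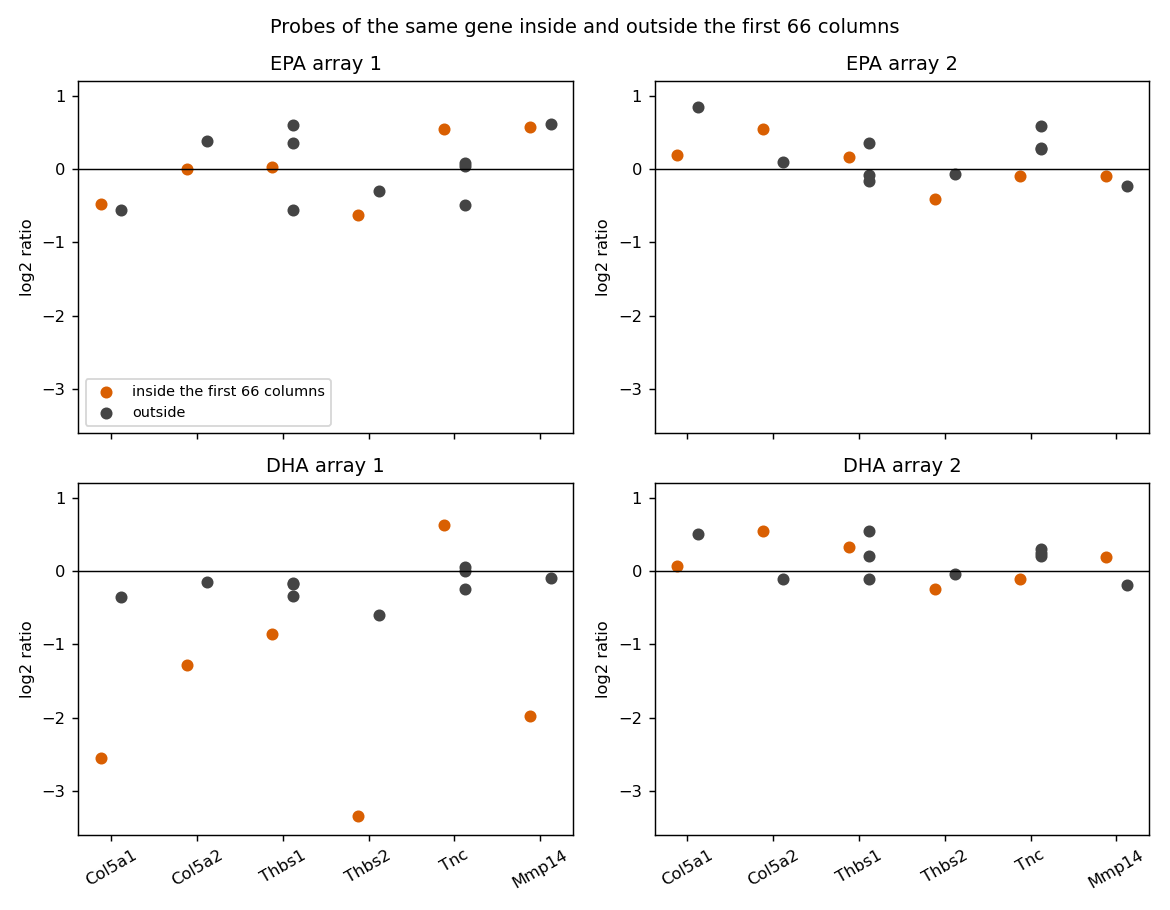
Log2 ratio (vertical axis) of the probes of the 6 listed genes that have probes both inside (orange) and outside (grey) the first 66 columns, 1 panel per array. On DHA array 1 the inside probes of Col5a1, Col5a2, Thbs1, Thbs2 and Mmp14 lie below all their outside probes, between -0.86 and -3.35, while Tnc is at 0.63.

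In these 6 genes probes of 1 gene can be compared across the columns. On DHA array 1 the inside probe was lower than the outside probes in 5 of 6, with a median difference of -1.50. Over the 1127 named genes with probes on both sides that median was -0.21, and 798 were lower inside. On the other arrays the 6 genes' median difference was -0.07 on EPA array 1, -0.11 on EPA array 2 and -0.05 on DHA array 2, where that of the 1127 genes was 0.16, -0.03 and -0.10. Among the 13 listed probes in those columns 5 (38.5%) were below -1 on DHA array 1, against 17.1% of all features there. The part of position in the listed genes' values was not tested beyond these measurements.

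Elastic fibre genes encode the recoil of tissue, and lysyl oxidases crosslink both elastin and collagen. Fbn1, fibrillin 1, the microfibril on which elastin is laid, was at 0.25, 0.50, 0.12 and 0.62. It was above 0 on every array, with means of 0.38 ± 0.12 for EPA and 0.37 ± 0.25 for DHA. Its only probe lies in the first 66 columns, and after subtraction of the local median it was at 0.06, 0.56, 0.02 and 0.71, close to 0 on both arrays 1. Eln, elastin, was at -0.12, 0.23, -0.17 and 0.12, and Fbln5, fibulin 5, an organiser of elastic fibres, at 0.10, 0.15, -0.30 and 0.03.

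Lox, lysyl oxidase, was at -1.01, -0.04, -0.30 and 0.14. The EPA mean of -0.52 ± 0.48 rests on array 1, since array 2 was near 0. Loxl1, a relative needed for elastic fibres, was at -0.00, 0.34, -0.40 and 0.21, higher on arrays 2 than on arrays 1. None of the elastic fibre and crosslinking genes passed 1.3-fold on both arrays of a swap.

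Matrix metalloproteases cut collagens and other matrix proteins, and the TIMP proteins inhibit them. Mmp2, gelatinase A, was at 0.24, 0.21, -0.29 and 0.14. Its EPA arrays lay close together (0.22 ± 0.01) and its 2 probes differed by at most 0.12 on any array. Mmp14, the membrane protease that activates Mmp2, was at 0.59, -0.16, -1.04 and -0.00. From its probe outside the first columns DHA array 1 was at -0.09, so the low DHA value rests on the other probe.

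Mmp3, stromelysin 1, was at -0.04, -0.01, 0.04 and 0.06, and Mmp9, gelatinase B, at 0.06, -0.17, 0.11 and -0.09. Neither gene was further than 0.17 from 0 on any array, and the values of Mmp9 followed the dye. Timp2, which takes part in Mmp2 activation as well as inhibition, was at -0.12, -0.13, -1.88 and 0.10, with its only probe in the first columns. Timp3, an inhibitor bound to the matrix, was at -0.09, 0.10, -0.13 and -0.10.

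The TGF-beta ligands drive fibroblasts towards matrix production. Tgfb1 was at 0.59, -0.01, -0.11 and 0.00, above 0.5 on EPA array 1 alone. The local median around its probe, which lies in the first columns, was 0.26 on that array, and 0.34 remained after it was subtracted. Tgfb2 was at 0.50, -0.04, -0.33 and 0.03, with no probe in those columns. Tgfb3 was at 0.05, 0.35, -0.52 and 0.22, above 0 on both EPA arrays and on opposite sides with DHA. For all 3 ligands the half-difference was larger than the DHA mean.

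No marker of the fibroblast itself passed 1.3-fold on both arrays of a swap in 1 direction. Their single values ran from -0.92 to 0.53, both of Pdgfrb. Vim, vimentin, the intermediate filament of fibroblasts and other mesenchymal cells, was at 0.02, 0.47, 0.16 and 0.11. It was above 0 on every array, with means of 0.24 ± 0.23 for EPA and 0.14 ± 0.03 for DHA, and EPA array 1 was nearly at 0. Ddr2, a collagen receptor of fibroblasts, was at 0.06, 0.18, 0.04 and 0.21. It too was above 0 on every array, with means of 0.12 ± 0.06 and 0.12 ± 0.08. Its 2 probes, both outside the first columns, differed by at most 0.14. After subtraction of the local median Ddr2 was at -0.06 on DHA array 1, and so not above 0 on every array.

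Pdgfra and Pdgfrb, the receptors for platelet-derived growth factor on fibroblasts and mural cells, had their only probes in the first columns. Pdgfra was at 0.50, -0.17, -0.75 and -0.23, and Pdgfrb at 0.53, -0.14, -0.92 and -0.08. Both were high on EPA array 1 and low on DHA array 1, and after subtraction of the local median these values became 0.28 and -0.47 for Pdgfra and 0.30 and -0.68 for Pdgfrb.

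Thy1, a surface glycoprotein of fibroblasts, was at 0.16, -0.12, 0.22 and -0.22. S100a4, known as fibroblast-specific protein and also made by leukocytes, was at 0.16, -0.25, 0.38 and -0.33. Both followed the dye in the direction opposite to Col1a2. Tcf21, a transcription factor of epicardium-derived fibroblasts, was at -0.07, -0.23, 0.02 and -0.50, below 0 on 3 arrays. Of the 7 markers, 6 lay above 0 on EPA array 1 and 5 on DHA array 1. On EPA array 2 it was 2, and on DHA array 2 also 2. The arrays of a swap lay on opposite sides of 0 for 4 markers with EPA and 3 with DHA. Among the markers only Thy1 and S100a4 followed the dye in both swaps. The medians of the 7 markers were 0.16, -0.14, 0.04 and -0.22.

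As a group the 34 genes had a median of 0.12 with EPA and -0.078 with DHA, where the medians of all named genes were -0.001 and 0.000. By array the listed genes' medians were 0.03, 0.08, -0.30 and 0.08. Without the first 66 columns, with arrays centred anew, the medians over the 27 genes left were 0.13 for EPA and -0.03 for DHA. DHA array 1 was still the lowest array there, with a median of -0.18 and 7 of 27 genes above 0. Over all named genes the median on that array was -0.008, with 3447 of 7223 above 0. For the choice of genes to describe in full, 4 (Tnc, Fbn1, Vim and Ddr2) lay above 0 on all 4 arrays, as did 7% of named genes, and 4 (Col3a1, Lum, Dcn and Thbs2) below 0, as did 7.59%. Without the first columns Vim and Ddr2 were above 0 on all 4 (background 7.79%), and Lum, Thbs2 and Tcf21 below (background 8.69%). Read as Cy5 over Cy3 the sets would be wholly different: 3 above (Mmp9, Thy1 and S100a4, background 12.2%) and 6 below (Col1a2, Col5a1, Fn1, Bgn, Eln and Loxl1, background 15.8%). Since the EPA and DHA arrays may share a control, these counts are a description only.

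EPA and DHA were given at the same dose, so they could be set side by side within each dye orientation, where a dye effect common to both arrays cancels. No test of the difference was possible with 1 RNA sample each. With the ratios read as fatty acid over control, Sparc had the largest mean difference among genes with the same side in both orientations, EPA being above DHA by 0.81 on arrays 1 and 0.53 on arrays 2. Pdgfra came next at 1.25 and 0.06 and Col5a1 at 0.94 and 0.23, both with a probe in the first columns that was low on DHA array 1. From its probe outside them Col5a1 differed by -0.20 and 0.34, on opposite sides. In the other direction Lox was at -0.71 and -0.18, Bgn at -0.34 and -0.15, and Lum at -0.27 and -0.15. Of these, Bgn is at the repeated values on arrays 1, so its -0.34 there is the same as for Col1a2 and Fn1. Read as Cy5 over Cy3, Sparc would be at 0.81 and -0.53, on opposite sides, and Timp2 would lead at 1.76 and 0.22.

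Altogether EPA was above DHA in both orientations for 10 of 34 genes (29.4%, against a background of 27.3%) and below for 5 (14.7%, against 30.6%). Without the first columns and with arrays centred anew it was above for 10 of 27 (37.0%, against 24.5%) and below for 4 (14.8%, against 30.4%). Both counts of genes below include Bgn, which is at the repeated values on arrays 1. The genes above in both settings were Col5a2, Sparc, Fbln5, Loxl1, Mmp2, Timp3 and Tgfb3. Read as Cy5 over Cy3, EPA would be above for 11 of 34 (32.4%, against 19.9%) and below for 8 (23.5%, against 22.1%), so the lower share of genes below depends on the direction of the ratio. The median difference of the 34 genes was 0.096, with 0.093 on arrays 1 and 0.066 on arrays 2, and that of all named genes was -0.0045.

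**Figure D3:**
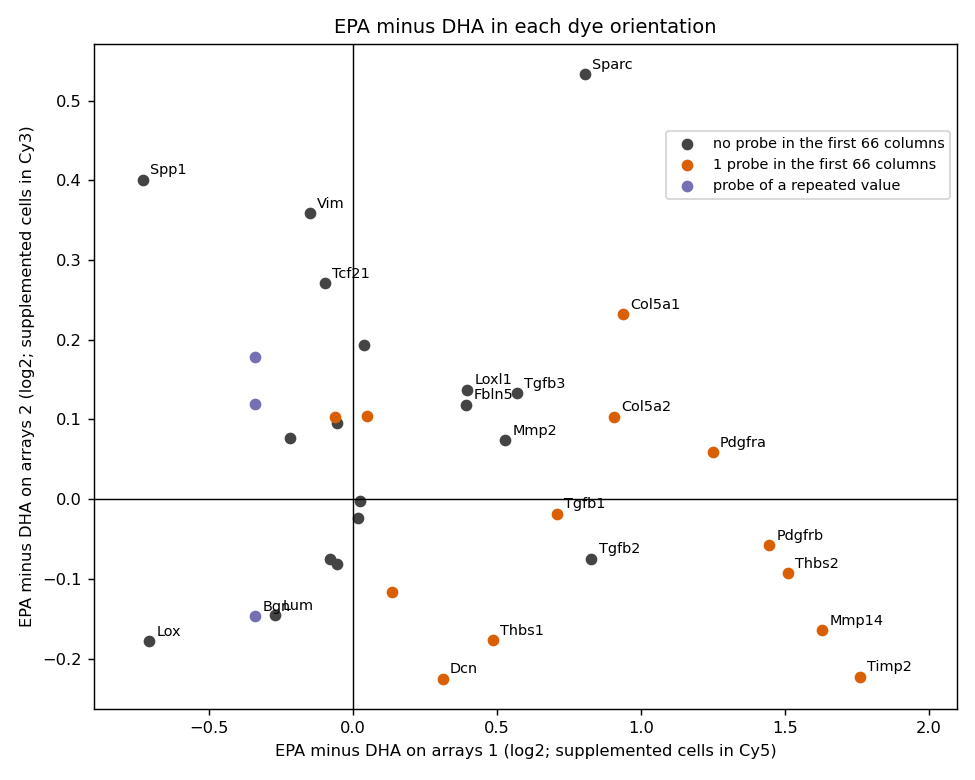
EPA minus DHA log2 difference of the 34 genes on arrays 1 (horizontal axis, supplemented cells in Cy5) and arrays 2 (vertical axis, supplemented cells in Cy3), coloured by probe position and repeated value. Sparc is alone at the upper right at 0.81 and 0.53, Lox is at the lower left, and the largest horizontal values, up to 1.76 for Timp2, belong to genes with a probe in the first 66 columns and lie near or below 0 on the vertical axis.

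Both fatty acids together were tested with limma on the 2 swap means of each of 17403 features. No feature passed an adjusted p of 0.05 (background 0%), the smallest adjusted p being 0.885, while 784 had an unadjusted p under 0.05. Among the listed genes 0 passed and 8 had an unadjusted p under 0.05, each with an adjusted p of 0.885 by limma. The joint means of those above control were 0.60 ± 0.06 (SE) for Fn1, 0.47 ± 0.06 for Col1a2, 0.59 ± 0.09 for Bgn and 0.37 ± 0.06 for Fbn1. Those below were Dcn at -0.31 ± 0.06, Thbs2 at -0.71 ± 0.20, Tcf21 at -0.20 ± 0.06 and Lum at -0.25 ± 0.08. The SE is taken from the EPA to DHA difference and does not hold the swap error, which for Fn1, Col1a2 and Bgn was larger than the mean. The spread of a control RNA used for both fatty acids would not enter it either.

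Leaving out the first columns, without centring anew, brought Fn1 (adjusted p = 0.000786), Bgn (0.00214) and Col1a2 (0.00376) past the threshold by limma, among 201 of 12608 features. With the arrays centred anew 6 features and 0 listed genes passed, the smallest adjusted p of a listed gene being 0.0518. All 3 genes stand at the repeated values on arrays 1.

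Other genes of the matrix and of the cell types in such cultures were read from 10 further lists, 181 of whose 253 genes had a probe. The other collagens (7 measured) had medians of 0.07, 0.11, -0.03 and 0.00, and 0 passed 1.3-fold in either direction. Among 16 collagen processing and crosslinking enzymes the medians were -0.04, 0.25, -0.25 and 0.16, lower on arrays 1 than on arrays 2. Tgm2, the tissue transglutaminase, was higher with EPA at 0.43 and 0.71 (mean 0.57 ± 0.14) and was at 0.17 ± 0.04 with DHA. It was the only gene of these enzymes past 1.3-fold on both arrays.

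Among 24 other proteases and inhibitors, Mmp12, the macrophage elastase, was lower on all 4 arrays at -0.84, -0.47, -1.06 and -0.63. With DHA it passed 1.5-fold on both arrays. The lists of 35 other proteoglycans and glycoproteins, 25 genes of the TGF-beta and PDGF pathway and 20 matrix receptors had 0 genes past 1.3-fold on both arrays, with list medians between -0.18 and 0.07.

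Markers of other cells were read the same way, and their list medians lay between -0.33 and 0.24. Cardiomyocyte markers (16 measured) had medians of -0.15, 0.06, -0.13 and 0.06, and smooth muscle and myofibroblast markers (9 measured) of -0.13, 0.24, -0.33 and 0.08, both lower on arrays 1 than on arrays 2, as were the fibrillar collagens. Endothelial markers (12 measured) had medians from -0.06 to 0.07. Macrophage and leukocyte markers (17 measured) were at -0.08, -0.07, -0.09 and -0.08. Without the first 66 columns, and not centred anew, 10 of them were left, with medians of -0.14, -0.04, -0.03 and 0.01. By their means, 6 of the 17 markers lay above 0 with EPA and 8 with DHA, so the list did not share 1 direction. Among the 17, Lyz2, the macrophage lysozyme, was lower with DHA at -1.13 and -0.42. With EPA it was at -1.19 and -0.29, past 1.3-fold on array 1 alone. Also lower with DHA was Tyrobp, a signalling adaptor of myeloid cells whose probe is in the first columns, at -1.76 and -0.40. Whether the mix of cells had a part in the listed genes' values was not tested.

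**Figure D4:**
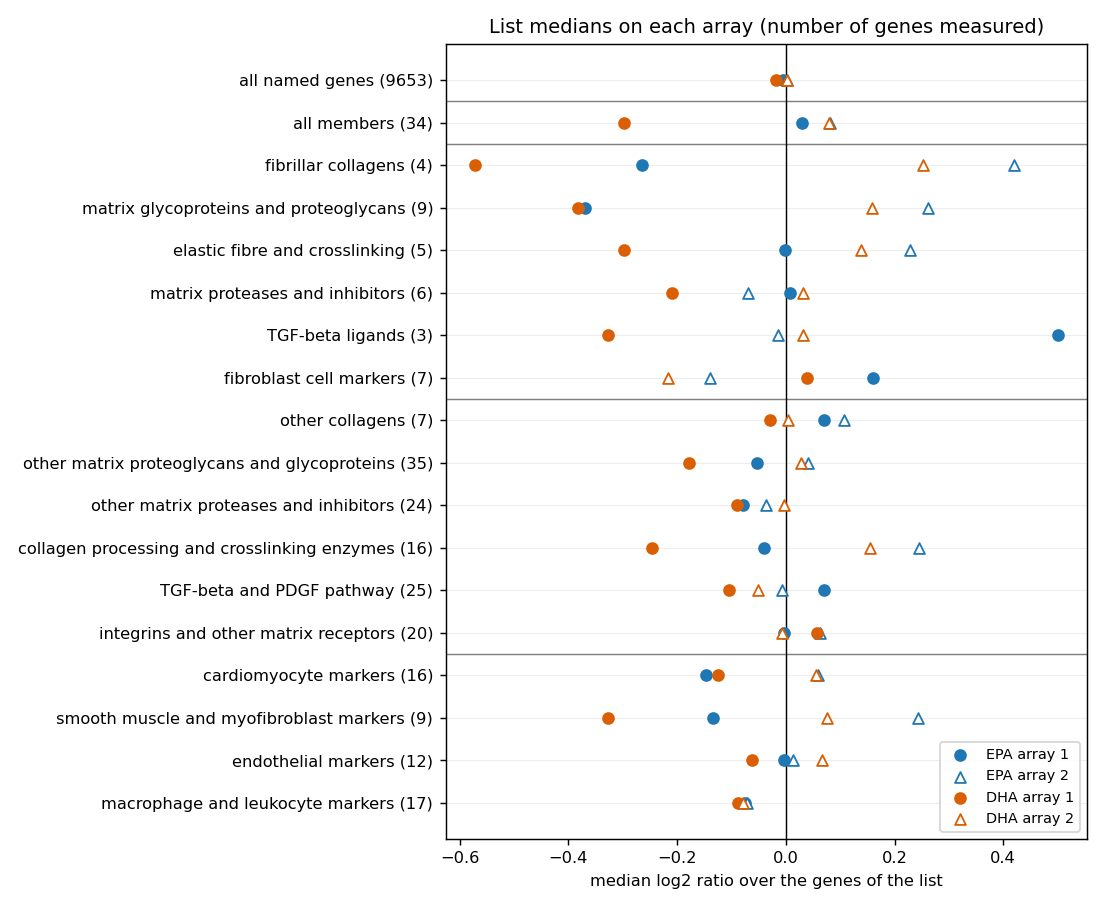
Median log2 ratio (horizontal axis) on each array for all named genes, the 34 listed genes, their role groups and the 10 other lists, with the number of genes measured in parentheses and symbols by array. The all-gene medians lie within 0.02 of 0, the fibrillar collagens run from -0.57 on DHA array 1 to 0.42 on EPA array 2, and the macrophage list lies between -0.09 and -0.07 on every array.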

How the data were processed

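The authors compared supplemented and control cells directly on each array and deposited 1 value per feature, per the labels, read here as a log2 ratio. Scanner software and dye normalization were not given in the sources used here, nor were the log base and ratio direction. Of 22575 features, 20500 had a value on all 4 arrays. Gene names came from the platform's annotation, which is old, and symbols were brought up to date through gene IDs of the GRCr8 assembly: 12750 had 1 gene, 5 several and 7745 were unlisted. Array medians were set to 0 and probes of a gene averaged. The 2 arrays of a swap were averaged, and their half-difference is given as the swap error. A gene was called when both arrays passed 1.5-fold in 1 direction. For both fatty acids, limma 3.58.1 (R 4.3.3) tested the swap means of named genes and unnamed probes, with Benjamini-Hochberg adjustment over all features. The calculations were tested on simulated data. Other steps used Python 3.11.15 with pandas 2.3.3 and numpy 2.4.6.

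The genes, lists, direction and log base were chosen with earlier results of these data known, so no list is independent evidence of a direction. All measured listed genes are given. Full accounts go to those on 1 side of 0 on all 4 arrays, those past 1.3-fold on both arrays of a swap, and, among genes with the same sign in both dye orientations, the 3 largest mean differences between EPA and DHA in each direction. From the other lists, genes past 1.3-fold on both arrays are named. Alternatives changed the ratio direction, log base, centring, scaling, local correction, threshold, model, and the probes or arrays used. Leaving out the first 66 columns with arrays centred anew was chosen after seeing the data. Precision is limited by there being only 4 arrays.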

Additional observations from a re-analysis of the deposited data

Results flagged for a closer look

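Mmp3, the gene of stromelysin 1, lay below 0 on both EPA arrays (-0.04 and -0.01) and above 0 on both DHA arrays (0.04 and 0.06). It drew attention because every array of one fatty acid was on one side of 0 and every array of the other on the opposite side. The mean difference, EPA minus DHA, was -0.078, which is small beside the interquartile range of 0.19 to 0.26 of all probes on an array, and the difference was not tested. It was lost in other settings: with the local median removed the EPA arrays were at 0.02 and -0.03 and the DHA arrays at -0.06 and 0.05, and read as Cy5 over Cy3 the arrays of each swap lie on opposite sides of 0.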

How the results depend on the processing

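Listed genes at 1.5-fold on both arrays stayed at 0 for both fatty acids in the alternatives not named here. With EPA 3 were called when the table was read as Cy5 over Cy3 (0.28% of all named genes), 7 when read as log10 (4.94%), 1 at 1.3-fold, 6 on array 1 alone (3.18%) and 4 on array 2 alone (0.86%). With DHA 1 was called as log10 (4.96%), 8 on array 1 alone (10.03%) and 4 on array 2 alone (0.86%). The EPA median of 0.12 became -0.044 as Cy5 over Cy3, 0.083 after quantile normalization, 0.085 without repeated values, 0.399 as log10, and 0.031 to 0.081 with either array alone. The DHA median of -0.078 ran from -0.298 to 0.080 with either array alone, and was -0.215 as Cy5 over Cy3, -0.259 as log10, -0.0053 without the first 66 columns, -0.032 with arrays centred anew there, -0.050 with equal spread and -0.035 after quantile normalization. The median EPA minus DHA difference was 0.066 without the first 66 columns, 0.134 centred without them, 0.074 as Cy5 over Cy3, 0.147 after local correction, 0.112 with equal spread, 0.068 after quantile normalization, 0.116 without repeated values, 0.318 as log10, and 0.066 to 0.093 with either dye orientation alone. By limma 0 features passed in the main analysis, and 201 did without the first columns, 6 with arrays centred anew there, and 0 to 1226 with either dye orientation alone. The 1226, of 17403 features, came from arrays 2 alone, where a dye effect would not cancel. Among them were 12 of the 34 listed genes: Bgn, Col1a2, Col5a1, Col5a2, Fbn1, Fn1, Loxl1, Lum, S100a4, Sparc, Tcf21 and Tgfb3. With limma over the 4 arrays and a replicate block, 0 features passed (smallest adjusted p = 0.459), and 1451 had an unadjusted p under 0.05. The replicate number coincides with the dye orientation, so a culture or control shared by arrays of 1 number cannot be told apart from the dye. Except for the log base, which multiplies every value, the cause of these differences was not tested. Spot intensities were not used here, so signal over background is unknown.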
